A study of Mus musculus with 6 samples.

Results

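Oxidative phosphorylation (OXPHOS) genes of the nuclear genome were followed in mouse epiblast stem cells (EpiSCs) as they were moved towards the neural plate. The members were all genes whose RefSeq accession on the array led to a symbol beginning with Ndufa, Ndufb, Ndufc, Ndufs, Ndufv, Uqcr, Cox4 to Cox8 or Atp5, together with Sdha, Sdhb, Sdhc, Sdhd and Cyc1. This rule took 94 of the 20274 named genes and 125 of the 55646 probes. It takes complex I assembly factors too, since their symbols begin with Ndufaf, and it takes no subunit encoded by the mitochondrial genome. EpiSCs are pluripotent cells with the properties of the epiblast after implantation. The cells, of strain 129/Sv, stayed in their epiblastic maintenance condition (EpiSC group, day 0) or spent 1 day (NPC1) or 2 days (NPC2) in a neural plate developmental condition. Each group held duplicate cultures, A and B, which came from the same seed culture, so p-values cover the spread between duplicates of 1 seed culture and possibly no more than technical spread. Each culture gave total RNA for 1 Agilent array of 1 colour.

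The respiratory chain sits in the inner mitochondrial membrane. Complex I takes electrons from NADH and complex II from succinate, complex III passes them on to cytochrome c, and complex IV gives them to oxygen. The proton gradient that complexes I, III and IV build is used by complex V, the ATP synthase. Pluripotent cells and early neural progenitors are both known for strong glycolysis, and neurons for their reliance on respiration.

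Promoter windows of 5 members are shown: 4 that were lower in NPC2 than in EpiSC under every scaling described below, picked from those with a match to a motif, and 1 that was higher. Each runs from 250 bases before to 50 bases after the start of the gene, is printed 5′ to 3′ and comes from RefSeq for assembly GRCm38.p6. Capitals mark matches on either strand to GCGCA, any base and GCGC in a row, the letters bound by the factor NRF1, or to CCGGAAG, an ETS-type site such as GABP binds. Cox6b2 is the gene that was higher, and Atp5c1 has a window for each of 2 starts:
Ndufaf4 (chr4:24897833-24898132, + strand): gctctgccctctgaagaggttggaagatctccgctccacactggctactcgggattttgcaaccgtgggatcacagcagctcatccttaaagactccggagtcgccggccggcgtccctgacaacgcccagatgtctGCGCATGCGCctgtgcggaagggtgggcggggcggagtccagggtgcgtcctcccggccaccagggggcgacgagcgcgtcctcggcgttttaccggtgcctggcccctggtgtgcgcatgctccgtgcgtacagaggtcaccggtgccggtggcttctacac
Cox6a1 (chr5:115348909-115349208, - strand): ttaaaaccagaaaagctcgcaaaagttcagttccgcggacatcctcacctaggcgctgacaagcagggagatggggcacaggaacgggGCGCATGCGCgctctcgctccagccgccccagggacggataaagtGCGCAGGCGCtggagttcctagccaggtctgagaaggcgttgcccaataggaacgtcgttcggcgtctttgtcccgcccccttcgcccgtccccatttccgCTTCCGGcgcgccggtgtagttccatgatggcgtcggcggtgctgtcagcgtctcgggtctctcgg
Atp5c1 (chr2:10080383-10080682, - strand): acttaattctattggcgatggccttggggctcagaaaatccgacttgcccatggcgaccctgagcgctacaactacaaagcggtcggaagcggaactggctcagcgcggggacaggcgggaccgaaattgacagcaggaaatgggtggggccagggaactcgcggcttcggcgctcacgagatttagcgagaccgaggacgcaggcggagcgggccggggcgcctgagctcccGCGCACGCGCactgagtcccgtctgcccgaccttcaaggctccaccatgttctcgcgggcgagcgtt
Atp5c1, other start (chr2:10080461-10080760, - strand): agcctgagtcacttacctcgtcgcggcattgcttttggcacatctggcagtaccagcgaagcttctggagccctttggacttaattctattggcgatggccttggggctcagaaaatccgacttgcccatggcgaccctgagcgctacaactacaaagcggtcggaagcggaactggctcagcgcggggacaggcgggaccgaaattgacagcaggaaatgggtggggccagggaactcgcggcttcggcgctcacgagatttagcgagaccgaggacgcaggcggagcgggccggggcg
Atp5l (chr9:44920693-44920992, - strand): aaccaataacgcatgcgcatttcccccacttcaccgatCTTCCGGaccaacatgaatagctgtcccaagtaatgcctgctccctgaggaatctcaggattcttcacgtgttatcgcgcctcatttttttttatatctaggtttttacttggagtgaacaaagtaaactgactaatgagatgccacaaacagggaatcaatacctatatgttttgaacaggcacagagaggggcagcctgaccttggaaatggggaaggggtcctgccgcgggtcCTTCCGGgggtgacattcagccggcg
Cox6b2 (chr7:4753045-4753344, - strand): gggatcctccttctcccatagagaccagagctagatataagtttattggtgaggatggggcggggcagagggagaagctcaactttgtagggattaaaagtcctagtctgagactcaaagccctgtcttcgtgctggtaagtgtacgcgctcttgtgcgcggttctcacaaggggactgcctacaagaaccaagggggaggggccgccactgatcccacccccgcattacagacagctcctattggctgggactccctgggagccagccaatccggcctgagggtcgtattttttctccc
The Cox6b2 window and the second Atp5c1 window held no match. RefSeq windows were found for 74 of the 91 members tested, 79 windows in all. The NRF1 letters stood in 25.3% of them, against 8.58% of the 14842 windows of all genes tested. The ETS letters stood in 24.1% of the members' windows, against 15.2%. The letters AAGATGGC, bound by YY1, stood in 13.9%, against 3.87%. The 3 motifs were searched separately and overlap was allowed. A match is a description of letters and not a measured site. Among the 18 members that were lower in NPC2 under every scaling described below, 15 had a window and 8 of these held at least 1 of the 3 motifs, while 34 of the 59 other members with a window did.

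The values are spot intensities divided by the 75th percentile of their array, called scaled intensity here, and log2 changes are differences of their means. Probes differ in brightness for reasons of their own, so levels are compared between groups and not between genes. Of the 94 members, 91 were tested, and all 91 were well above background on all 6 arrays. Cox7b2, Cox8b and Cox8c, tissue-restricted complex IV isoforms, were well above background on 0 of 6 arrays and were not tested. Duplicates correlated at r = 0.9971 to 0.9976 across genes, which are not independent replicates. The arrays shared 1 slide and 1 scan, 0 spots were saturated, and the share of spots well above background was 58.2% to 61.1%. Of 9 EpiSC markers, 7 were lower in NPC2 than in EpiSC, among them Pou5f1 (log2 change -2.66) and Fgf5 (-4.26), and Nanog and Otx2 were higher. All 9 neural plate markers were higher in NPC2, among them Sox1 (5.72) and Hesx1 (4.25). The scaled intensities of 9 fibroblast and feeder markers summed to 12.3 and 11.6 in NPC2 against 7.31 and 7.70 in EpiSC, and of the 9, 4 were called higher in NPC2, among them Postn (log2 change 2.53) and Col1a2 (1.41), and Twist2 (-1.49) and Dcn (-0.56) were called lower. Those of 4 endoderm markers summed to 1.3 and 1.5 in NPC2 against 5.45 and 5.25 in EpiSC. The sum over 6 neuron markers was 37.2 and 35.6 in NPC2, 46.0 and 42.3 in NPC1 and 29.4 and 28.9 in EpiSC. Of the 6, 3 were called higher and 1 lower in NPC2 against EpiSC, where 28.3% of all genes were higher and 40.6% lower. In NPC1 against EpiSC 5 were higher and 1 lower, where 21.4% and 28.6% of all genes were. The part of fibroblasts, endoderm cells and neurons in the results below was not tested. In bulk RNA fewer cells of a type and less RNA per cell cannot be told apart.

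OXPHOS genes changed by small amounts beside the genes of the array as a whole. Between NPC2 and EpiSC the interquartile range of the members' log2 changes was 0.335, from -0.36 to -0.02, and that of all 14773 genes tested was 0.789, from -0.46 to 0.33. Only Ndufa4l2 and Cox6b2 passed the test (adjusted p in limma) with a change of at least 2-fold in NPC2 against EpiSC, 2 of 91 members, where 19.9% of all genes did. In NPC1 against EpiSC it was Ndufa4l2 alone, against 8.34% of all genes, and in NPC2 against NPC1 it was 0 members, against 10.9%. The median standard error (SE) of a member's log2 change was 0.0546. On the log2 scale the median scaled intensity of the members was 5.59 to 5.80 on the 6 arrays. No comparison with genes of like brightness was made.

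With changes of this size, the way arrays are scaled decides many calls. With the 75th percentile as scale, 50 members were called lower and 6 higher in NPC2 against EpiSC, where 40.6% of all genes were called lower and 28.3% higher. Of the members 19 were lower and 28 higher in the authors' value table, and under quantile normalization 19 were lower and 29 higher. The median of all genes itself was -0.10 under the 75th percentile, 0.13 in the value table and 0.00 under quantile normalization. Relative to it the members' median was -0.08, -0.08 and 0.04. Of 4 control genes, Gapdh (-0.06) and Tbp (-0.14) were not called in NPC2 against EpiSC with the 75th percentile, Hprt (-0.91) was lower under all 5 scalings, and Actb (-0.20) was called lower but gave 0.02 in another scaling. The direction of the whole set after 2 days therefore depends on the scaling. Members are for this reason described mainly by the calls made in the same direction under the 75th percentile and 4 other scalings (normexp background correction, median scaling, the value table and quantile normalization), a rule chosen after the data were seen.

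**Figure D1:**
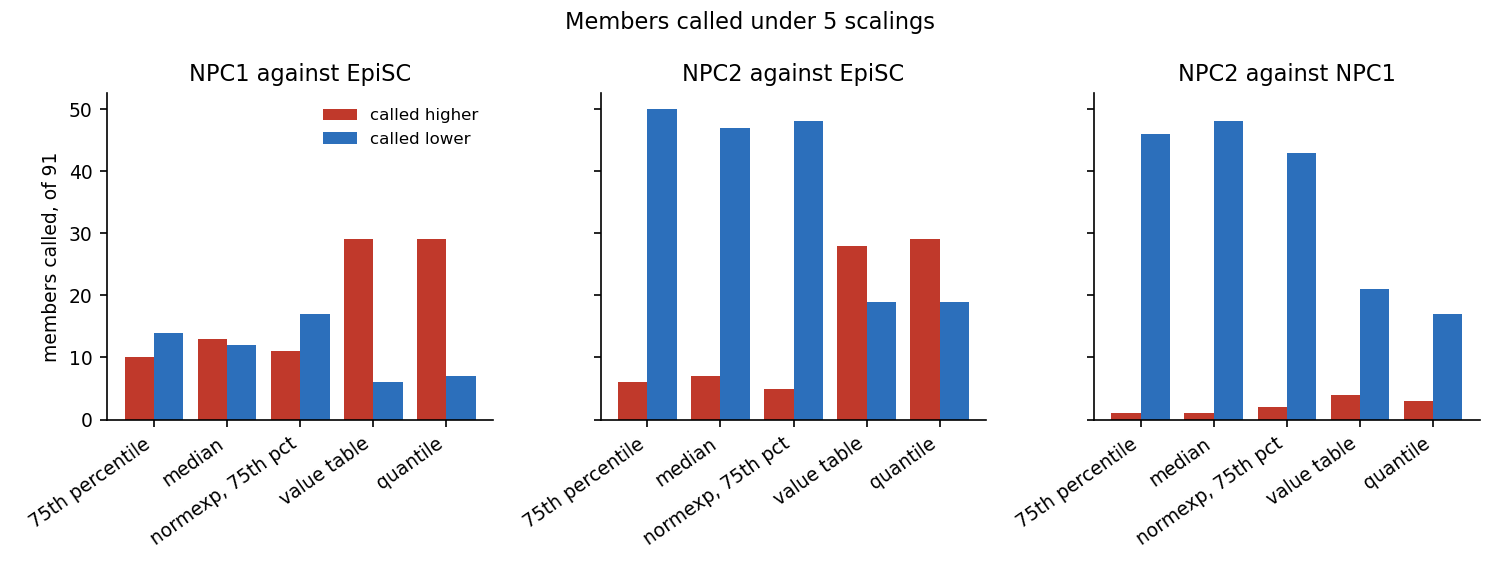
Number of the 91 members called higher (red) or lower (blue) under 5 scalings, in 3 comparisons. In NPC2 against EpiSC 50 members were called lower under the 75th percentile and 19 under quantile normalization, while in NPC2 against NPC1 lower calls were the more numerous under each scaling.

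Under that rule 18 members were lower in NPC2 than in EpiSC and 5 were higher. These are 19.8% and 5.49% of the members, where 25.9% of all genes were lower and 26.1% higher, so the share that was lower was near the background and the share that was higher was below it. The 18 lower members were also called in each fit that left out 1 array and under every other alternative tried. They belong to complexes I (5 of 44 tested), III (4 of 9), IV (3 of 17) and V (6 of 17), and 0 of the 4 complex II subunits is among them. For NPC1 against EpiSC the rule gave 10 higher and 6 lower members, where 18.5% and 17.8% of all genes were called. With the 75th percentile alone these counts were 10 and 14 members, and 21.4% and 28.6% of all genes. The members' median in NPC1 against EpiSC was 0.00, beside -0.05 for all genes.

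**Figure D2:**
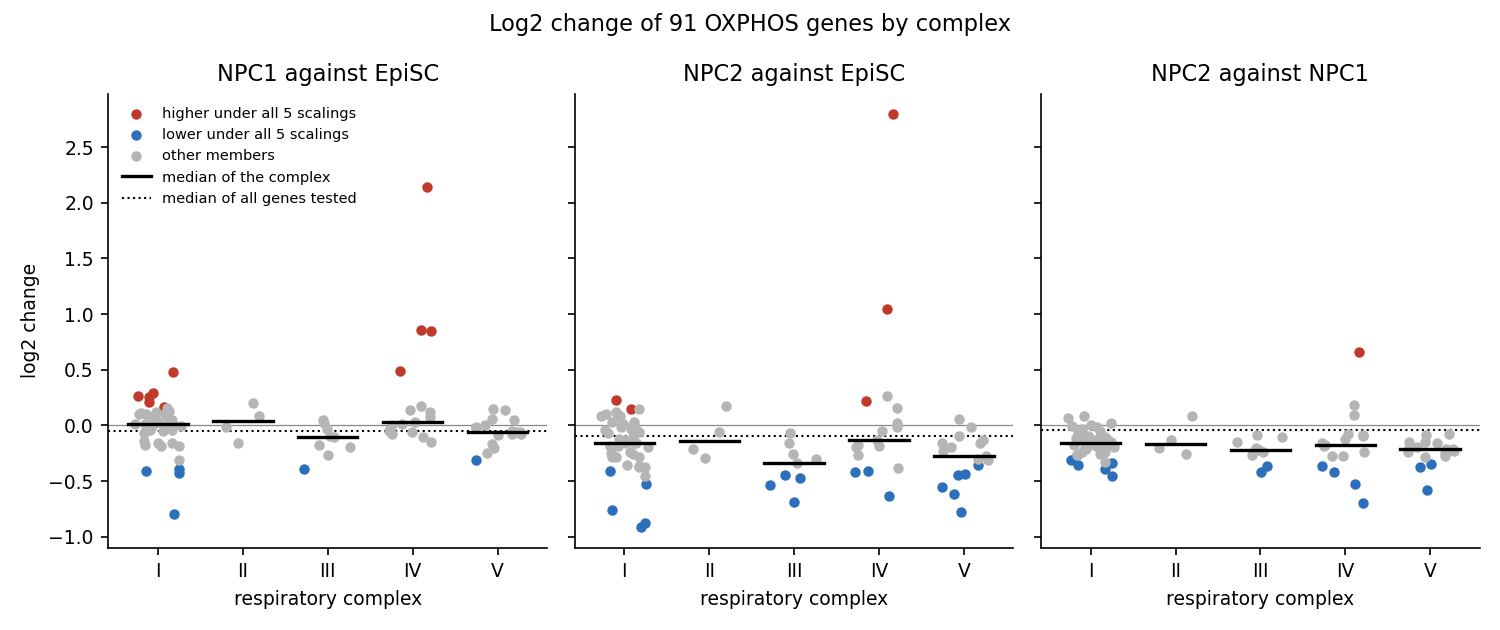
Log2 change of each of the 91 members by complex, with the complex median (black bar) and the median of all genes tested (dotted line), in 3 comparisons scaled by the 75th percentile. Blue and red points were called lower or higher under all 5 scalings; most members lie within 0.5 of 0, and the highest point is Ndufa4l2 at 2.80 in NPC2 against EpiSC.

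In complex I the lower members included a core subunit, accessory subunits and assembly factors. Ndufaf4, an assembly factor, stood at 17.3 and 17.3 in EpiSC, 9.67 and 10.3 in NPC1 and 9.13 and 9.26 in NPC2. The NPC arrays lay below both EpiSC arrays, and most of the drop was there at day 1. Its log2 change was -0.91 ± 0.05 in NPC2 against EpiSC (SE, n = 2 arrays per group, as in all that follows; adjusted p = 0.000111 in limma), and its other probe gave -1.05. Ndufs8, a core subunit that carries iron-sulfur clusters, stood at 12 and 12 in EpiSC, 8.76 and 9.14 in NPC1 and 6.53 and 6.52 in NPC2. It fell by 0.42 on the first day and by 0.46 on the second on the log2 scale, and the groups did not overlap. Ndufab1, the mitochondrial acyl carrier protein and an accessory subunit, stood at 4.35 and 4.53 in EpiSC, 3.2 and 3.5 in NPC1 and 2.57 and 2.67 in NPC2 (log2 change -0.76 ± 0.06 in NPC2 against EpiSC, adjusted p = 0.000371 in limma). Ndufa10, an accessory subunit (-0.41 ± 0.05), and Ndufaf6, an assembly factor (-0.52 ± 0.06), completed the 5. Ndufaf2, another assembly factor, was lower in NPC1 than in EpiSC under all 5 scalings (-0.39 ± 0.07), with 7.78 and 8.41 in NPC1 against 10.8 and 10.5 in EpiSC.

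Other complex I genes were higher at day 1 under all 5 scalings, 6 of the 44 tested. This share was below the 18.5% of all genes that were higher in NPC1 than in EpiSC. Ndufv3, an accessory subunit of the arm that oxidises NADH, stood at 55.0 to 56.2 in EpiSC, 77.2 and 78.3 in NPC1 and 64.4 and 59.2 in NPC2. It was higher in NPC1 than in EpiSC (log2 change 0.48 ± 0.06, adjusted p = 0.00275 in limma) and was lower in NPC2 than in NPC1 (-0.33 ± 0.06), the second of which was not called under all 5 scalings. The other, dimmer probe of Ndufv3 showed no drop on the second day. It gave 0.32 in NPC1 against EpiSC, 0.38 in NPC2 against EpiSC and 0.06 in NPC2 against NPC1. Ndufaf7, a methyltransferase needed for complex I assembly, and Ndufaf3, an assembly factor, were higher in NPC1 by 0.29 and 0.26 on the log2 scale. Ndufa6 was higher by 0.26 in NPC1 and 0.22 in NPC2, Ndufc1 by 0.16 and 0.15, and Ndufa13, the brightest complex I probe, by 0.21 in NPC1. These small day 1 calls rest on both duplicates: without EpiSC A the adjusted p in limma was 0.0729 (Ndufaf7), 0.135 (Ndufaf3), 0.0762 (Ndufa6), 0.139 (Ndufc1) and 0.105 (Ndufa13). In NPC2 against EpiSC the call of Ndufc1 ended with any array of either group left out (adjusted p in limma between 0.0675 and 0.15), and that of Ndufa6 without EpiSC A (0.0791) or NPC2 A (0.0729). The core subunits Ndufs1 and Ndufv1 gave -0.36 and -0.19 in NPC2 against EpiSC with the 75th percentile, and Ndufv1 turned to 0.03 in the value table and 0.07 under quantile normalization. For the 7 core subunits tested the counts were 4 lower and 0 higher with the 75th percentile, and Ndufs8 alone under all 5 scalings. Beside these, 40.6% of all genes were lower with the 75th percentile and 25.9% under all 5 scalings.

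Complex II, which is also succinate dehydrogenase of the tricarboxylic acid cycle, gave no call that held under all 5 scalings. Sdhd, a membrane anchor, stood at 39.9 and 36.2 in NPC2 against 46.3 and 47.0 in EpiSC (log2 change -0.29 ± 0.07). The flavoprotein subunit Sdha gave -0.22 ± 0.05 with the 75th percentile but 0.01 in the value table and 0.05 under quantile normalization. Sdhc, the other anchor, was at 14.8 and 14.7 in NPC2 against 13.1 and 13.0 in EpiSC (0.18 ± 0.05, adjusted p = 0.0209 in limma, and 0.074 to 0.099 with an array of either group left out). Sdhb, the iron-sulfur subunit, stood at 73.4 and 75.7 in EpiSC, 85.2 and 86.1 in NPC1 and 75.5 and 68.0 in NPC2, highest on both day 1 arrays.

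In complex III 8 of 9 members were called lower in NPC2 than in EpiSC with the 75th percentile and 4 under all 5 scalings. Of all genes 40.6% and 25.9% were called lower in the same order. Cyc1, cytochrome c1, stood at 81.6 and 80.4 in EpiSC, 65.0 and 69.4 in NPC1 and 48.8 and 51.7 in NPC2. The groups did not overlap, and NPC2 was 1.61-fold lower than EpiSC (log2 change -0.69 ± 0.06, adjusted p = 0.000392 in limma). Uqcrfs1, the Rieske iron-sulfur protein, was at 40.3 and 41.4 in EpiSC, 29.6 and 32.8 in NPC1 and 28.5 and 27.9 in NPC2, so most of its drop lay on the first day. The core protein gene Uqcrc1 gave -0.44 ± 0.06 and Uqcrq, the brightest probe of the complex, -0.47 ± 0.06 in NPC2 against EpiSC. The smallest change was that of Uqcrh (-0.07 ± 0.05), which did not pass.

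Complex IV holds subunits found in all tissues and isoforms restricted to some, and the difference between these kinds was not tested. Of 11 subunits found in all tissues, 7 were called lower and 0 higher in NPC2 against EpiSC with the 75th percentile, and 3 were lower and 2 higher in the value table. Under all 5 scalings 3 of the 11 were lower, beside 25.9% of all genes, and 26.1% of all genes were higher. With the 75th percentile 40.6% of all genes were lower and 28.3% higher. Of 5 tissue-restricted isoforms, 3 were higher and 0 lower, all 3 under all 5 scalings, and 1 of the 3, Cox7a1, lost its call with an array left out. Cox7c stood at 95.8 and 92.5 in EpiSC, 85.4 and 89.6 in NPC1 and 60.9 and 60.7 in NPC2, and its 3 probes gave log2 changes of -0.59, -0.63 and -0.69 in NPC2 against EpiSC. Cox8a (-0.42 ± 0.06) and Cox6a1 (-0.41 ± 0.06) were lower as well. Cox6a1, the brightest member probe, was at 261 and 242 in NPC2, against 334 and 336 in NPC1 and 338 and 328 in EpiSC, so that its drop lay on the second day. The subunits Cox5a (-0.26) and Cox7a2 (-0.38) were called lower with the 75th percentile but not under all 5 scalings. Cox4i1 (-0.18) and Cox6b1 (-0.18) changed sign to 0.04 and 0.05 in the value table. Cox7a2l, a factor that joins complexes III and IV into supercomplexes, gave 0.02 ± 0.05.

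In NPC2 against EpiSC the tissue-restricted isoforms Ndufa4l2 and Cox6b2 held the largest changes of the set. The others, Cox4i2, Cox7a1 and Cox6a2, changed less there than members such as Ndufaf4. Ndufa4l2, a relative of the complex IV subunit Ndufa4 that is known to be induced in hypoxia, stood at 0.518 and 0.497 in EpiSC, 2.18 and 2.30 in NPC1 and 4.17 and 2.98 in NPC2. The groups did not overlap, and NPC2 was 6.94-fold higher than EpiSC (log2 change 2.80 ± 0.16, adjusted p = 0.000123 in limma). Its further rise in NPC2 over NPC1 (0.66 ± 0.16, adjusted p = 0.0268 in limma) ended as a call without EpiSC A or B (0.052 each), NPC1 A (0.104) or NPC1 B (0.0832). Cox6b2, described in testis, stood at 6.43 and 6.45 in EpiSC, 12 and 11.4 in NPC1 and 13.9 and 12.6 in NPC2. NPC2 was 2.06-fold higher than EpiSC (1.04 ± 0.07, adjusted p = 0.000159 in limma). Cox7a1, an isoform of heart and skeletal muscle, stood at 5.42 and 5.42 in EpiSC, 7.51 and 7.73 in NPC1 and 6.57 and 6.05 in NPC2, and its call in NPC2 against EpiSC (0.22 ± 0.06) ended without EpiSC A (adjusted p = 0.0855 in limma), EpiSC B (0.0876) or NPC2 A (0.0909). Cox6a2, the other muscle isoform, was dim but well above background on all arrays, with 0.0467 and 0.0583 in EpiSC, 0.0894 and 0.0994 in NPC1 and 0.0577 and 0.0586 in NPC2. It was higher in NPC1 than in EpiSC (0.85 ± 0.12, adjusted p = 0.00453 in limma), while NPC2 and EpiSC overlapped. With normexp, the same rise was 0.31. Cox4i2, described in lung and in hypoxia, gave 0.27 ± 0.12 in NPC2 against EpiSC and did not pass.

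The ratio of an isoform to its ubiquitous partner on the same array does not change when an array is multiplied by a constant, but normexp and quantile normalization can move it. It shows unequal change of the pair and not which of them moved. Relative to the EpiSC mean, log2 of Ndufa4l2 over Ndufa4 was 3.06 and 2.80 in NPC2 and 1.98 and 2.02 in NPC1, against 0.29 and -0.29 in EpiSC. Cox6b2 over Cox6b1 was 1.28 and 1.15 in NPC2 and 0.94 and 0.76 in NPC1, against 0.01 and -0.01 in EpiSC. Cox7a1 over Cox7a2 was 0.61 and 0.60 in NPC2 and 0.68 and 0.60 in NPC1, and Cox6a2 over Cox6a1 was 0.50 and 0.63 in NPC2 and 0.77 and 0.92 in NPC1. The corresponding EpiSC values reached 0.01 and 0.18 on either side of 0. Cox4i2 over Cox4i1 was 0.58 and 0.32 in NPC2, 0.33 and 0.14 in NPC1 and within 0.05 of 0 in EpiSC. In each of these 5 pairs every NPC1 and NPC2 array lay above both EpiSC arrays. How many other pairs of genes separate in this way is not given here, so the 5 pairs have no background beside them. Over the 5 scalings the mean ratio in NPC2 relative to EpiSC was 2.56 to 2.93 for Ndufa4l2, 1.18 to 1.22 for Cox6b2, 0.51 to 0.60 for Cox7a1, 0.33 to 0.56 for Cox6a2 and 0.20 to 0.45 for Cox4i2. In NPC1 that of Cox6a2 was 0.84 with the 75th percentile and 0.31 with normexp. The ratios were not tested.

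**Figure D3:**
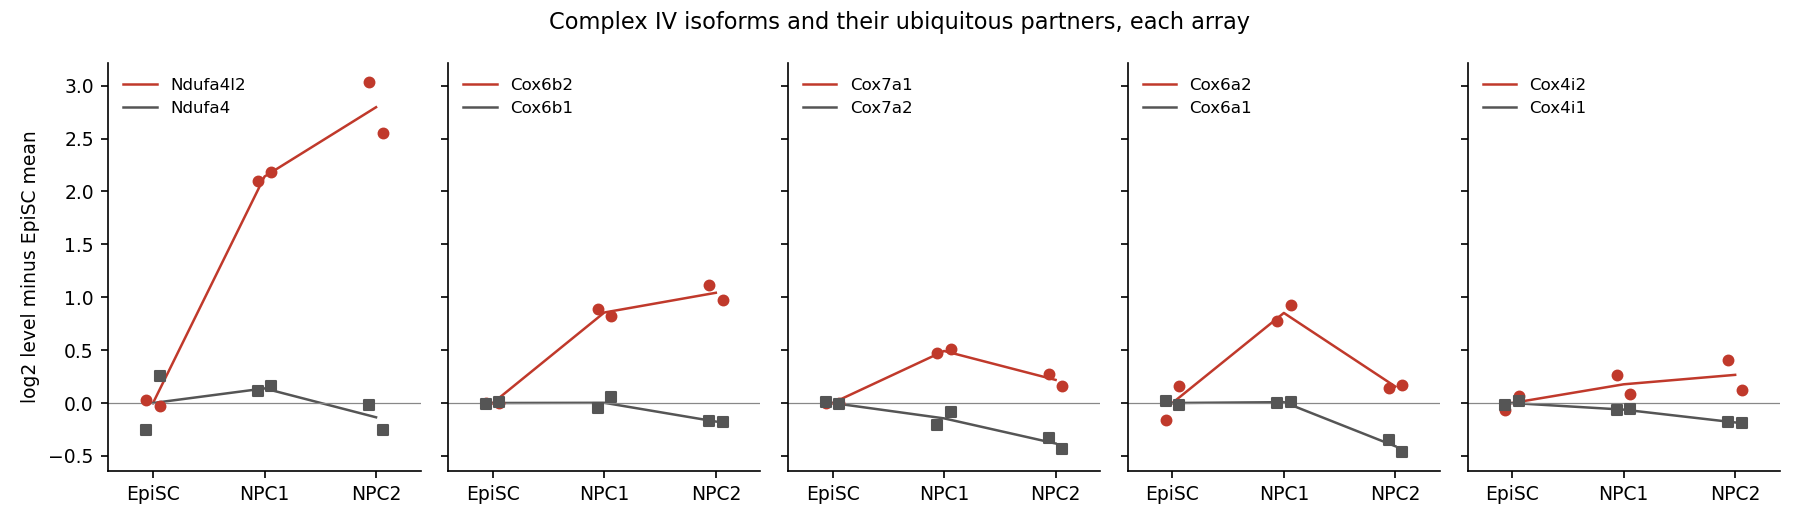
Log2 scaled intensity of 5 complex IV isoforms (red circles) and their ubiquitous partners (grey squares) on each array, minus the EpiSC mean of the gene; lines join group means. Ndufa4l2 and Cox6b2 stood above EpiSC on both days, while Cox6a2 and Cox7a1 were highest at day 1.

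In complex V 12 of 17 members were called lower and 0 higher in NPC2 against EpiSC with the 75th percentile, and 6 were lower under all 5 scalings. The shares of all genes that were lower were 40.6% with the 75th percentile and 25.9% under all 5 scalings. Atp5l, which encodes the membrane subunit g, stood at 108 and 109 in EpiSC, 90.9 and 97.5 in NPC1 and 64.6 and 61.7 in NPC2. NPC2 was 1.72-fold lower than EpiSC (log2 change -0.78 ± 0.06, adjusted p = 0.000242 in limma), and the 5 probes of the gene gave -0.69 to -0.94. All 5 subunits of the catalytic F1 head were called lower with the 75th percentile, and 3 of them under all 5 scalings: Atp5d (-0.62 ± 0.04), Atp5c1, the rotating central stalk (-0.43 ± 0.05), and Atp5b, the catalytic beta subunit (-0.36 ± 0.05). Atp5b stood at 210 and 208 in NPC2, against 256 and 251 in NPC1 and 263 and 272 in EpiSC.

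The c-ring, the rotor through which protons pass, is encoded by 3 genes whose mature proteins are alike, and these did not move together. Atp5g3 stood at 191 and 199 in EpiSC, 152 and 162 in NPC1 and 139 and 128 in NPC2 (log2 change -0.55 ± 0.07 in NPC2 against EpiSC, adjusted p = 0.00129 in limma). It was also lower in NPC1 than in EpiSC (-0.31 ± 0.07), a call that ended without EpiSC A (adjusted p = 0.0519 in limma), EpiSC B (0.0796) or NPC1 A (0.063). Atp5g1 stood at 133 and 130 in EpiSC, 117 and 118 in NPC1 and 94.8 and 98.0 in NPC2 (-0.45 ± 0.05). Atp5g2 stood at 257 and 271 in EpiSC, 299 and 285 in NPC1 and 279 and 272 in NPC2, and its change of 0.06 ± 0.05 in NPC2 against EpiSC did not pass with the 75th percentile. It was called higher in the value table (0.28, adjusted p = 0.00839 in limma) and under quantile normalization (0.20, adjusted p = 0.0215 in limma). On the same array, log2 of Atp5g1 over Atp5g2 relative to the EpiSC mean was -0.55 and -0.47 in NPC2 and -0.36 and -0.27 in NPC1, and that of Atp5g3 over Atp5g2 was -0.57 and -0.65 in NPC2 and -0.54 and -0.38 in NPC1. In the peripheral stalk 1 of 4 members was lower with the 75th percentile and 0 under all 5 scalings. Of all genes 40.6% and 25.9% were lower in the same order. For Atp5pb, a stalk member that was not called, the brightest probe gave -0.09 in NPC2 against EpiSC. Its other probe gave -0.26 (adjusted p = 0.0162 in limma, each probe tested for itself).

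**Figure D4:**
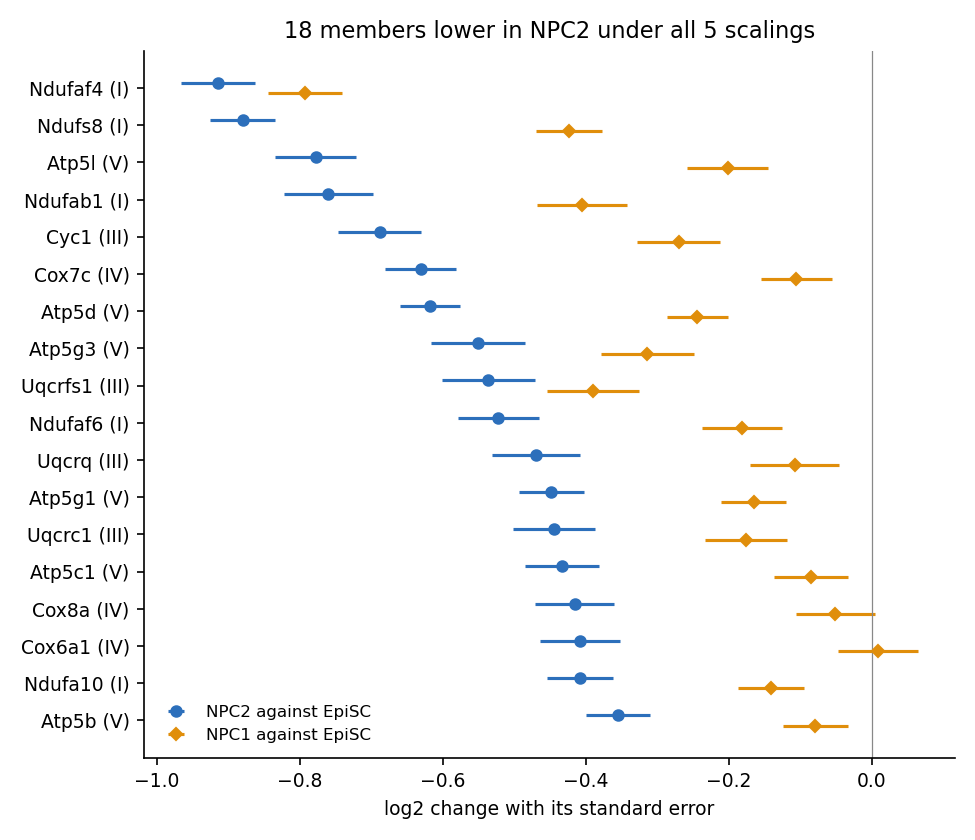
Log2 change with its standard error of the 18 members that were lower in NPC2 than in EpiSC under all 5 scalings, for NPC2 against EpiSC (blue circles) and NPC1 against EpiSC (orange diamonds), scaled by the 75th percentile. Ndufaf4 had most of its change at day 1, and Cox6a1 had a change of 0.01 there.

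The second day alone compared NPC2 with NPC1. With the 75th percentile 46 members were lower and 1 higher, where 26.7% of all genes were lower and 20.6% higher, and the members' median was -0.19 beside -0.05 for all genes. Lower calls outnumbered higher ones under each scaling, with 21 and 4 in the value table and 17 and 3 under quantile normalization. Under all 5 scalings 15 members were lower and 1 was higher, where 19% of all genes were lower and 19% higher. With 1 array left out, between 18 (without NPC2 B) and 40 (without NPC1 A) members were lower with the 75th percentile. Of the 15, 13 were called under every other alternative as well, all but Ndufab1 and Ndufaf3. Relative to all genes the members' median was -0.14 with the 75th percentile and in the value table and -0.06 under quantile normalization. With the 75th percentile the largest drops were those of Cox6a2 (-0.70 ± 0.12, and -0.23 with normexp), Atp5l (-0.58 ± 0.06) and Cox7c (-0.53 ± 0.05), with Ndufs8 (-0.46), Cyc1 (-0.42) and Cox6a1 (-0.42) next. Ndufa12, an accessory subunit of complex I, was at 61.8 and 59.4 in NPC2 against 78.0 and 80.7 in NPC1 (-0.39 ± 0.05). The 2 daily steps share the NPC1 arrays, so their difference was tested as its own contrast. It passed for 14 members with the 75th percentile, where 29.3% of all genes passed in either direction. The second day was below the first in 13 of them and above it for Ndufaf4 alone (0.67 ± 0.09, adjusted p = 0.00708 in limma). How all genes divide between the directions is not given here, so this split has no background beside it. Results of this contrast under the other scalings are not given either.

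The same member could be read by several probes. Of the members, 24 had at least 2 probes above the filter. Among the probes of a gene the range of log2 change in NPC2 against EpiSC had a median of 0.0662. It reached 0.478 for Ndufaf5, an assembly factor. The probe that stood for Ndufaf5 was well above background on all 6 arrays, and its other, dim probe on 3. When each probe was tested for itself, 0 genes had probes called in opposite directions. In that fit the share of 33536 probes called was 33.2% in NPC1 against EpiSC and 54.5% in NPC2 against EpiSC. Between the NPC groups it was 31.9%.

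Genes that feed the chain, assemble it or carry its substrates were followed in 8 lists. For comparison, 40.6% of all genes were lower and 28.3% higher in NPC2 against EpiSC with the 75th percentile. Under all 5 scalings the shares were 25.9% and 26.1%. The pyruvate dehydrogenase list, which governs entry of pyruvate into the tricarboxylic acid cycle, had 5 of 12 genes lower and 1 higher in NPC2 against EpiSC, all 6 under all 5 scalings, with a median of -0.14. Mpc1, a subunit of the mitochondrial pyruvate carrier, stood at 8.88 and 9.42 in EpiSC, 1.95 and 2.11 in NPC1 and 0.925 and 0.861 in NPC2. The groups lay far apart, with a log2 change of -3.36 ± 0.07 in NPC2 against EpiSC (adjusted p = 1.05e-05 in limma), while its partner Mpc2 gave -0.07. Pdhb, which encodes the beta subunit of the E1 enzyme of pyruvate dehydrogenase, stood at 38.7 and 39.7 in EpiSC, 18.6 and 19.5 in NPC1 and 11.8 and 11.4 in NPC2 (-1.76). Its partner Pdha1 gave 0.02. Of the kinases that switch the enzyme off, Pdk2 was higher (1.42) and Pdk1 (-0.67) and Pdk4 (-1.26) were lower in NPC2 than in EpiSC, and Pdp2, a phosphatase that switches it on, was lower (-1.15).

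In the tricarboxylic acid cycle 9 of 14 genes were lower and 1 higher in NPC2 against EpiSC with the 75th percentile, 4 and 1 of these under all 5 scalings, with a median of -0.27. Lower calls took 40.6% of all genes with the 75th percentile and 25.9% under all 5 scalings. Idh3a, the catalytic subunit of the NAD-dependent isocitrate dehydrogenase, stood at 23.4 and 23.0 in EpiSC, 13.5 and 15.0 in NPC1 and 8.93 and 9.07 in NPC2 (-1.36). Ogdh (-0.60), Mdh2 (-0.60) and Cs, citrate synthase (-0.52), were lower too, and Idh2, which makes NADPH, was higher (0.34). Cycs, the somatic cytochrome c that links complexes III and IV, stood at 86.0 and 93.1 in EpiSC, 70.8 and 75.5 in NPC1 and 58.1 and 57.3 in NPC2 (-0.63, adjusted p = 0.000695 in limma). The testis form Cyct was dim, between 0.0246 and 0.0479 on the 6 arrays, and its change of 0.63 was not called under all 5 scalings.

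Carriers exchange the substrates and products of ATP synthesis across the inner membrane. The list tested held 6 genes: adenine nucleotide and phosphate carriers, uncoupling genes, and Atpif1, which is of neither kind. Of the 6, 4 were lower and 0 higher in NPC2 against EpiSC, all 4 under all 5 scalings. Among all genes 40.6% were lower with the 75th percentile and 25.9% under all 5 scalings. Slc25a5, an ADP/ATP carrier, stood at 38.7 and 41.5 in EpiSC, 26.9 and 28.5 in NPC1 and 19.0 and 19.0 in NPC2 (-1.08), while Slc25a4, its relative, gave 0.09. The phosphate carrier Slc25a3 (-0.95) and the uncoupling protein genes Ucp2 (-0.80) and Ucp3 (-0.81) were lower. Among 7 mitochondrial antioxidant enzymes 6 were lower and 1 higher, 5 and 1 under all 5 scalings, with Gpx4 at 57.4 and 57.2 in NPC2 against 132 and 134 in EpiSC (-1.22) and Gpx1 at -0.82.

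Factors that assemble the complexes or express mitochondrial DNA are read here against the share of all genes that were lower. It was 40.6% with the 75th percentile and 25.9% under all 5 scalings. Of 17 complex IV assembly genes 10 were lower and 0 higher in NPC2 against EpiSC with the 75th percentile, 5 of them under all 5 scalings, among them Coa6 (-0.85) and Cox11 (-0.62), both involved in the copper supply of the enzyme. Of 12 assembly genes of complexes II, III and V, 6 were lower and 1 higher, 2 and 1 under all 5 scalings, with Sdhaf1, an assembly factor of complex II, lowest (-0.77). Among 16 genes of mitochondrial biogenesis and mitochondrial DNA expression 11 were lower and 2 higher, 3 and 1 under all 5 scalings. Esrra, which encodes a nuclear receptor that regulates OXPHOS genes, stood at 7.0 and 7.2 in EpiSC, 5.6 and 5.6 in NPC1 and 4.2 and 4.3 in NPC2 (-0.74). Gabpa, a subunit of GABP, was lower (-0.53). Nrf1 itself stood at 2.59 and 2.68 in NPC2, against 1.83 and 1.89 in NPC1 and 2.09 and 2.18 in EpiSC (0.30 in NPC2 against EpiSC). Ppargc1a, a coactivator, was not well above background on both arrays of any group.

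**Figure D5:**
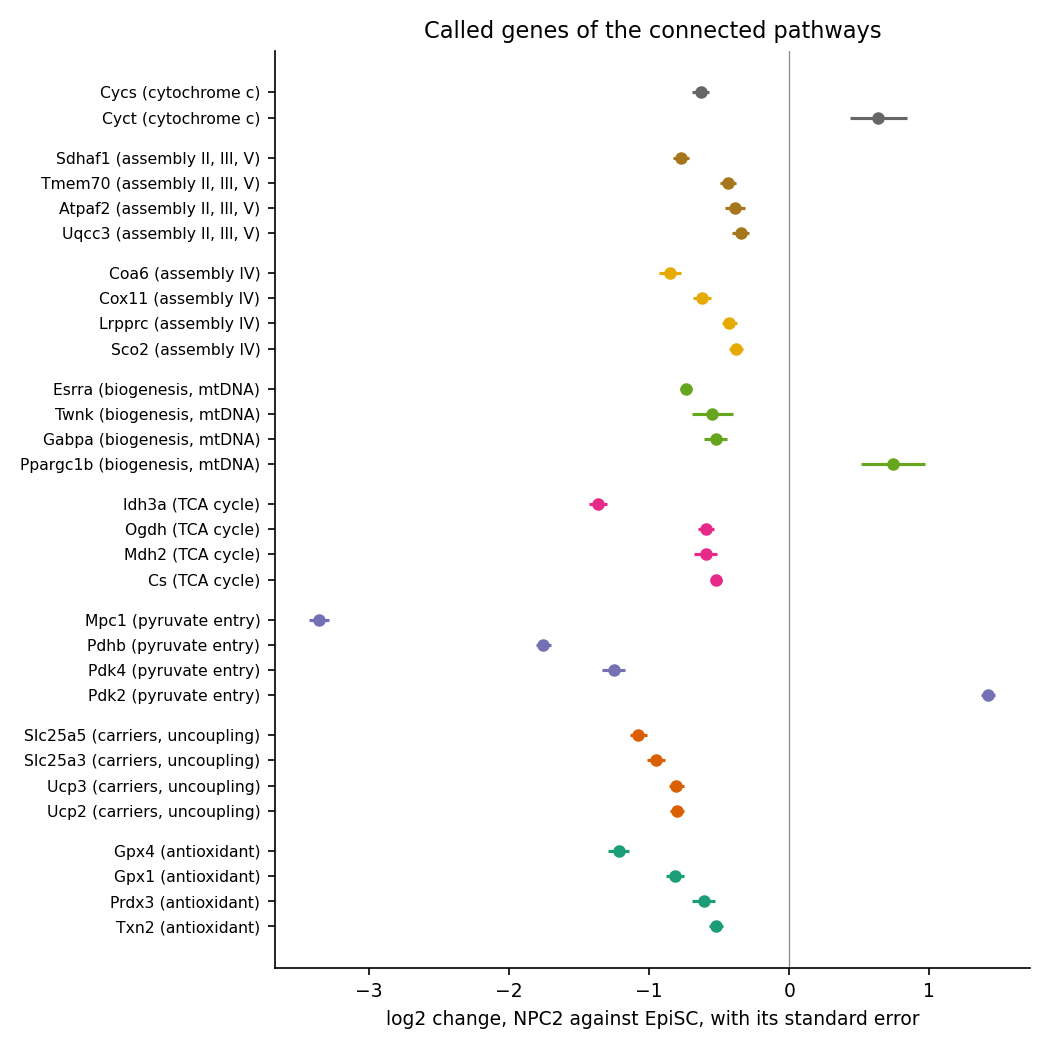
Log2 change with its standard error in NPC2 against EpiSC of the called genes with the largest changes in 8 lists, up to 4 per list, scaled by the 75th percentile. Mpc1 and Pdhb lie lowest and Pdk2 highest; the smallest changes, such as those of Uqcc3 and Sco2, lie within 0.4 of 0.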

How the data were processed

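Agilent 1-colour arrays were scanned and read with Agilent Feature Extraction 10.10.1.1, per the file headers, which gave the processed intensity of each spot, background-subtracted and linear. In the value table that the authors deposited, the intensity is multiplied by 1 constant per array (2.10 to 2.41); its medians were 65.3 and 64.3 in NPC2, 61.8 and 59.6 in NPC1 and 52.5 and 51.3 in EpiSC, and the basis of that constant is unknown here. The labels' protocols give 100 ng of RNA per culture. Control and outlier spots were left out, spots of a probe were averaged, and genes were named by RefSeq accession through the table of GRCm38.p6 (26744 of 28372 probes). Each array was scaled to its 75th percentile and taken to log2. Probes had to be well above background in both cultures of a group, and the brightest of them stood for its gene. All 6 arrays entered 1 limma 3.58.1 fit (R 4.3.3, lmFit and eBayes, two-sided, 3 residual and 1.9 prior degrees of freedom), adjusted by Benjamini-Hochberg over 14773 genes at 0.05. Fits were tested on simulated data. The members and lists were chosen with earlier results of these data known. Named members were the 6 largest called rises and falls without overlap per comparison, a fixed set of isoforms and core subunits, the brightest probe of each complex and members called in opposite directions on the 2 days, 39 in all; per list, up to 4 called genes with the largest change in NPC2 against EpiSC. Members and list genes named outside this rule, the rule of 5 scalings and the isoform ratios under them were chosen after their values were seen. Alternatives were 4 other scalings or sources, 2 filters on dim probes, the mean of a gene's probes, the replicate block, only the 2 groups compared, and leaving out each array. Cultures of 1 letter showed no shared deviation across groups: correlations of A minus B over genes were -0.045, 0.006 and 0.008. This cannot show whether cultures of a letter were handled together. Per-sample columns without a sample numbered 0. The authors' scanner tables hold median spot signals, which the normexp correction (offset 50) used.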

Additional observations from a re-analysis of the deposited data

Results flagged for a closer look

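For 5 members the first and the second day were called in opposite directions (limma, adjusted p over all genes). They were picked by those calls, so that the difference of the steps passed too was nearly set in advance and is no further support. The share of all genes that turned back in this way is not given here. The second-day change minus the first-day change in log2 was -1.55 for Cox6a2, -0.76 for Cox7a1, -0.57 for Ndufaf3, -0.50 for Ndufaf7 and -0.82 for Ndufv3, and their adjusted p in limma was 0.0073, 0.00664, 0.0267, 0.0245 and 0.0056. Each was higher in NPC1 than in EpiSC and lower in NPC2 than in NPC1 with the 75th percentile. For Ndufv3 this holds for its brightest probe only, and its other probe gave 0.06 in NPC2 against NPC1. The second step held under all 5 scalings for Cox6a2 and Ndufaf3. With normexp the steps of Cox6a2 were 0.31 and -0.23, and with the 75th percentile 0.85 and -0.70. The steps of Cox6a2 and Ndufv3 also kept their calls with each array left out. Those of Ndufaf7, Ndufaf3 and Cox7a1 did not: for Ndufaf7 the second step had an adjusted p in limma of 0.162 without NPC2 B, for Ndufaf3 0.0911, and for Cox7a1 0.0664.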

How the results depend on the processing

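Calls of small changes depend on the scaling, and each value here comes from the limma fit. Members called higher, lower and the median log2 change were 29, 6 and 0.12 in the value table and 29, 7 and 0.10 under quantile normalization for NPC1 against EpiSC, 28, 19 and 0.0418 and then 29, 19 and 0.0454 for NPC2 against EpiSC, and 4, 21 and -0.0828 and then 3, 17 and -0.0533 for NPC2 against NPC1. Quantile normalization put the members' median relative to all genes at 0.109, 0.0443 and -0.0642 in the same order. For NPC1 against EpiSC 8 members were lower with no filter on dim probes, 9 with only the 2 groups compared and 9 with the replicate block. For NPC2 against NPC1 29 were lower with no filter and 29 with only the 2 groups, and 0 were higher in both; normexp gave 2 higher. The replicate block gave 5 higher and 43 lower for NPC2 against EpiSC and 1 and 33 for NPC2 against NPC1. With 1 array left out, the ranges were 5 to 9 higher, 5 to 11 lower, a median of -0.0428 to 0.033 and a median relative to all genes of 0.00721 to 0.0799 for NPC1 against EpiSC, 2 to 6 higher, 34 to 50 lower, a median of -0.215 to -0.166 and a relative median of -0.118 to -0.0692 for NPC2 against EpiSC, and 0 to 1 higher, 18 to 40 lower and a median of -0.224 to -0.154 and a relative median of -0.173 to -0.114 for NPC2 against NPC1. Counts moved by over 1.5 times in NPC1 against EpiSC without EpiSC A (5 higher, 7 lower), EpiSC B (5 lower), NPC1 A (6 lower), NPC1 B (5 higher), NPC2 A or NPC2 B (9 lower each), and in NPC2 against EpiSC without EpiSC A or NPC2 A (2 higher each). In NPC2 against NPC1 they did so without EpiSC A or EpiSC B (29 lower each), NPC1 B (21), NPC2 A (23) or NPC2 B (18). In NPC2 against EpiSC, sign turned for Cox4i1 (0.0395 in the value table, 0.0275 under quantile), Cox6b1 (0.0479, 0.0386), Ndufv1 (0.0307, 0.0736), Sdha (0.00715, 0.0464) and Sdhb (0.216, quantile only). The cause was not tested. With 2 arrays in each group, the number of arrays sets the precision.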
